A study of Mus musculus with 8 samples.

Results

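The genes described here encode the aminoacyl-tRNA synthetases. They were taken by symbol from an expression table of 23234 gene rows, and 36 of the rows were members. Of these, 20 encode cytosolic enzymes and 16, whose symbols end in 2, encode mitochondrial enzymes. A synthetase joins an amino acid to its tRNA, the step that ties each codon to its amino acid, and most amino acids have separate enzymes for the cytosol and for mitochondria. Eprs serves both glutamate and proline in the cytosol, Farsa and Farsb encode the subunits of a single enzyme, and Gars and Kars each give a cytosolic and a mitochondrial form, so that both are counted here with the cytosolic genes. Mitochondria lack a glutamine enzyme and make glutaminyl-tRNA with an amidotransferase. Several cytosolic enzymes sit on scaffold proteins in the multisynthetase complex, and many cytosolic synthetase genes are known targets of ATF4, the transcription factor of the amino acid response.

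RNA of donor germinal centre B cells from mouse spleen was sequenced in bulk, as 8 libraries in 4 groups of 2. Such cells shuttle between the dark zone (DZ), the site of division, and the light zone (LZ), the site of selection. Every group had the C57BL/6 background and carried B1-8hi(KI/+), an antigen receptor allele that gives binding to the hapten NP, ERT2cre(KI/+), a Cre that tamoxifen activates, and Prdm1(f/f), floxed for the plasma cell factor Blimp1. The groups differed in Bach2, which encodes a transcriptional repressor of the B lineage: sKO stands here for Bach2(+/+) Prdm1(f/f) and dKO for Bach2(f/f) Prdm1(f/f). The controls thus also carried floxed Prdm1, and a group with intact Prdm1 was not part of the comparison. Naive donor cells were placed in wild-type CD45.1/45.2 hosts, which have lymphocytes of their own. The hosts received 3 mg of tamoxifen for 3 days and then NP-CGG in alum by the intraperitoneal route. On day 10, donor cells that bound NP were sorted from the pooled spleens of 5 hosts as CD86 high, CXCR4 low (LZ) or CD86 low, CXCR4 high (DZ). Whether the 2 libraries of a group came from separate pools is not stated, so a p-value here covers only how far these libraries spread. The ages of the mice are not given in the sources used here.

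Levels are FPKM, fragments per length of transcript and per mapped fragments, so levels can be compared between genes per length. Differences are on the log2(FPKM + 1) scale with their standard error (SE), a scale that shrinks changes of low genes. A gene rose or fell where limma gave an adjusted p under 0.05 over all 10610 genes that reached 1 FPKM in 2 or more libraries. All 36 members passed that filter. In bulk RNA, fewer cells of a type and less RNA per cell cannot be told apart. In LZ, Bach2 was at 49.8 and 53.4 FPKM in sKO and 64.5 and 62.7 in dKO, and at 76.2 and 74.6 against 96.2 and 94.5 in DZ. A gene-level value also counts exons outside the floxed part, so it checks nothing about the deletion, and dKO stands for the label. Prdm1 was below the filter, in LZ at 0.0577 and 0.0184 FPKM in sKO and 0.98 and 0.967 in dKO, and in DZ at 0.0473 and 0.122 in sKO and 0.258 and 0.434 in dKO.

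Markers of cell types moved with genotype as well. All 10 B cell and germinal centre markers were detected, and their summed level was 4237 to 4335 FPKM in sKO against 3744 to 3768 in dKO in LZ, and 3761 to 3915 against 3360 to 3394 in DZ. Of the 10, 5 fell and 1 rose in LZ, and 3 fell and 1 rose in DZ. The summed level of the 3 light zone markers was higher in every LZ library than in every DZ library, and that of the 3 dark zone markers was lower. Cd86, in the first list, and Cxcr4, in the second, encode the proteins used for the sort, so these sums partly restate it. Of the light zone markers 2, Cd86 and Cd83, fell in dKO in LZ. The summed level of 5 plasma cell markers was 309 to 325 FPKM in sKO LZ and about 368 in both dKO LZ libraries, and 431 to 449 against 460 to 472 in DZ. Most of this sum was Igj, at 238 and 229 FPKM in sKO LZ and 275 and 276 in dKO LZ. In DZ Igj was at 356 and 365 in sKO and 388 and 398 in dKO. Irf4 was at 11.0 and 11.6 against 12.8 and 13.0 FPKM in LZ. In DZ it was lower in dKO, at 4.05 and 3.01 against 1.99 and 2.35. Xbp1 was at 76.5 and 68.8 against 78.4 and 77.6 FPKM in LZ. In DZ it overlapped, at 70.6 and 80.6 against 69.7 and 70.9. Sdc1, below the filter, was at 0.0666 and 0.0637 FPKM in sKO LZ and 0.606 and 0.505 in dKO LZ. The summed level of 6 T cell markers was at most 0.835 FPKM and that of 4 NK markers at most 1.25. The summed level of 9 myeloid markers in LZ was 25.7 and 73.8 FPKM in sKO and 35.97 and 158 in dKO, and in DZ it was 11.7 to 14.9, so replicate 2 of dKO LZ held the most. The summed level of 4 erythroid markers was 1.74 and 13.5 FPKM in sKO LZ, 19.9 and 15.98 in dKO LZ and 3.59 to 10.7 in DZ.

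Short motifs of factors that act in B cells or in the amino acid response were read in the promoters of the members. RefSeq promoter windows (build GRCm38.p6, 250 bases before to 50 after the start site) were found for 27 of the 36 members, 13 cytosolic and 14 mitochondrial. The ATF4 composite element, which ATF4 binds with a C/EBP partner, was searched as TGATGNAA on both strands (TTNCATCA on the other). It was in 5 of 13 cytosolic windows (38.5%), those of Aars, Gars, Iars, Tars and Yars, in 0 of 14 mitochondrial windows, and in 1219 of 27025 genes overall (4.51%). The E-box CACGTG, which MYC and related factors bind, was in 4 cytosolic windows (30.8%; Aars, Farsb, Iars and Tars), in 1 mitochondrial window (Ears2) and in 8.09% of genes. The core of the MAF recognition element, searched as TGAGTCA on both strands (TGACTCA on the other), which Bach proteins bind together with small MAF partners, was in the Qars window, in 0 of 14 mitochondrial windows and in 5.95% of genes. The cyclic AMP element TGACGTCA was in none of the 27 windows and in 2.03% of genes. No 2 of these motifs overlapped in the windows. The stretches from 150 bases before to 30 after the start site are shown for the 5 genes with the ATF4 element and for Qars, with ATF4 elements, E-boxes and the MAF core in capitals. They are read along the gene, from RefSeq, build GRCm38.p6, and a match is a description of the letters and not a bound site.
Aars (chr8:111033692-111033871, plus strand): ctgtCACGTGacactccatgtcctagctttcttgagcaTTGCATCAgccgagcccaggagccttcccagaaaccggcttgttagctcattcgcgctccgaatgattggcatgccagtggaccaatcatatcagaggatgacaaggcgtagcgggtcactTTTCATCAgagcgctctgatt
Gars (chr6:55037851-55038030, plus strand): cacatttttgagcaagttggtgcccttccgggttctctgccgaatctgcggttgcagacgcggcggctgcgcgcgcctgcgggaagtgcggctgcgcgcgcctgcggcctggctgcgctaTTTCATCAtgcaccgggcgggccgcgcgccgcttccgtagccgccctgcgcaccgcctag
Iars (chr13:49681980-49682159, plus strand): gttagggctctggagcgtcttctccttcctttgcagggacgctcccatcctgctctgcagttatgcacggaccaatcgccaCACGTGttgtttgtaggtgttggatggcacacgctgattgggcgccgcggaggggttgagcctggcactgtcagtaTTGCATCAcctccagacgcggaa
Tars (chr15:11399629-11399808, minus strand): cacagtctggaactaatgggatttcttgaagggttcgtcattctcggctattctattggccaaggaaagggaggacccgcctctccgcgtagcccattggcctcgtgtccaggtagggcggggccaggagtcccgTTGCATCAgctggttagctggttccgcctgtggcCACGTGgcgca
Yars (chr4:129189753-129189932, plus strand): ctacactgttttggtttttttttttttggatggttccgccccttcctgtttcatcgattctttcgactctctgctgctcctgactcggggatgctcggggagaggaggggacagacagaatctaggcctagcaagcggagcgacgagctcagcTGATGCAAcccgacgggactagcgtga
Qars (chr9:108507855-108508034, plus strand): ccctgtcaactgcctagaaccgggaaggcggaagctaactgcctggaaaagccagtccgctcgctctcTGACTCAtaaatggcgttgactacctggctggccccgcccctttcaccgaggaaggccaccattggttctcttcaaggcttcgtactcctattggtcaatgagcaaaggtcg
Aars held 2 ATF4 elements, 112 bases before and 9 bases after the start site, and an E-box 146 bases before it. In Iars the ATF4 element lay 7 bases after the start site and the E-box 69 bases before it. In Tars the ATF4 element lay 15 bases before the start site and the E-box 19 after it. The element was 30 bases before the start site in Gars and 3 after it in Yars. The MAF core of Qars lay 82 bases before the start site.

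Cytosolic synthetase transcripts were more abundant than mitochondrial ones, with a single exception among enzymes for the same amino acid. The median cytosolic gene was in LZ at 35.2 ± 0.76 FPKM in sKO and 46.5 ± 0.78 in dKO, and in DZ at 32.2 ± 0.21 and 37.6 ± 0.43 (mean ± SD, n = 2). The median mitochondrial gene was in LZ at 10.0 ± 0.14 and 10.1 ± 0.042 FPKM and in DZ at 10.4 ± 0.85 and 10.8 ± 0.033, sKO before dKO. Vars, the valine enzyme, was the highest cytosolic gene, with a mean of 122.6 FPKM over the 8 libraries. It was followed by Dars (aspartate) at 82.1, Kars (lysine) at 70.9, Gars (glycine) at 70.0 and Qars (glutamine) at 63.8. Cars, the cysteine enzyme, was the lowest, at 18.6. Lars2, the leucine enzyme, led the mitochondrial genes at 51.7 FPKM, and Iars2 (isoleucine) was next at 21.9. Wars2, for tryptophan, was the lowest of the 36 members, at 2.09 FPKM, close to Nars2, for asparagine, at 2.31.

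**Figure D1:**
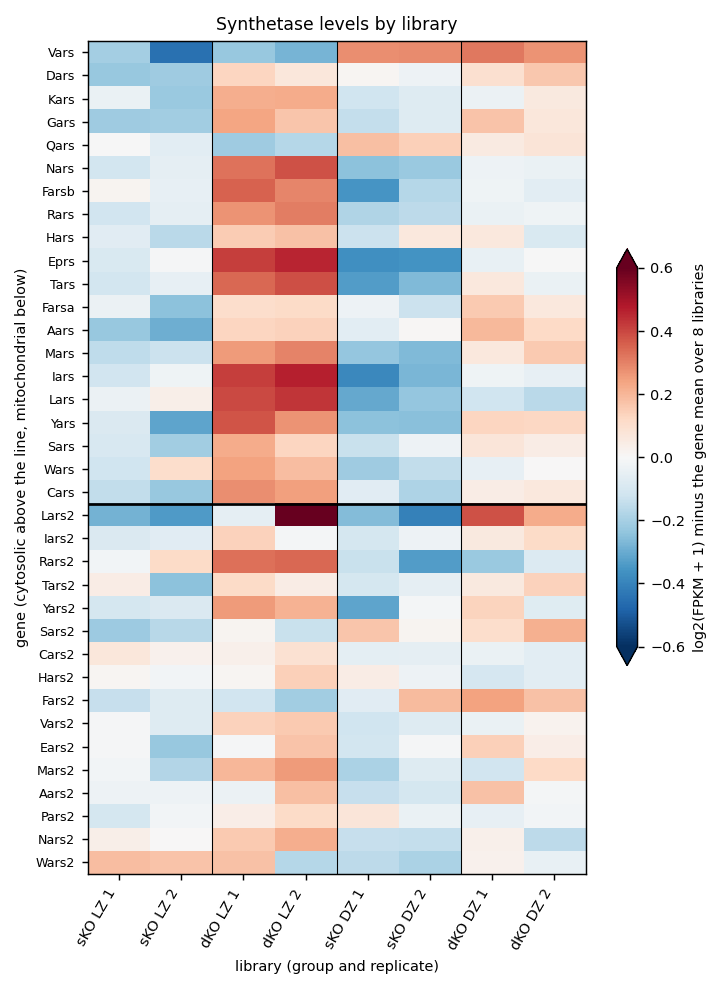
Heat map of the 36 synthetases (rows, ordered by mean level within the cytosolic and the mitochondrial class) in the 8 libraries (columns). Colour is log2(FPKM + 1) minus the gene's mean over the 8 libraries, and most cytosolic rows are red in the dKO LZ columns while Vars is blue in all LZ columns.

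Enzymes for the same amino acid were set side by side as 17 pairs, Eprs with both Ears2 and Pars2 and both Fars subunits with Fars2. The cytosolic gene was above the mitochondrial one in every library in 16 of the 17. The ratio of mean FPKM was highest for asparagine, where Nars was at 21.6 times Nars2. It was near this for valine, where Vars ranged from 14.3 to 26.4 times Vars2 over the libraries. At the low end, Iars was 1.14 to 1.95 times Iars2. Leucine was the exception, with Lars at 0.341 to 0.675 times Lars2 in the 8 libraries. The part of ribosomal RNA, set beside Lars2 further below, in this level was not tested.

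**Figure D2:**
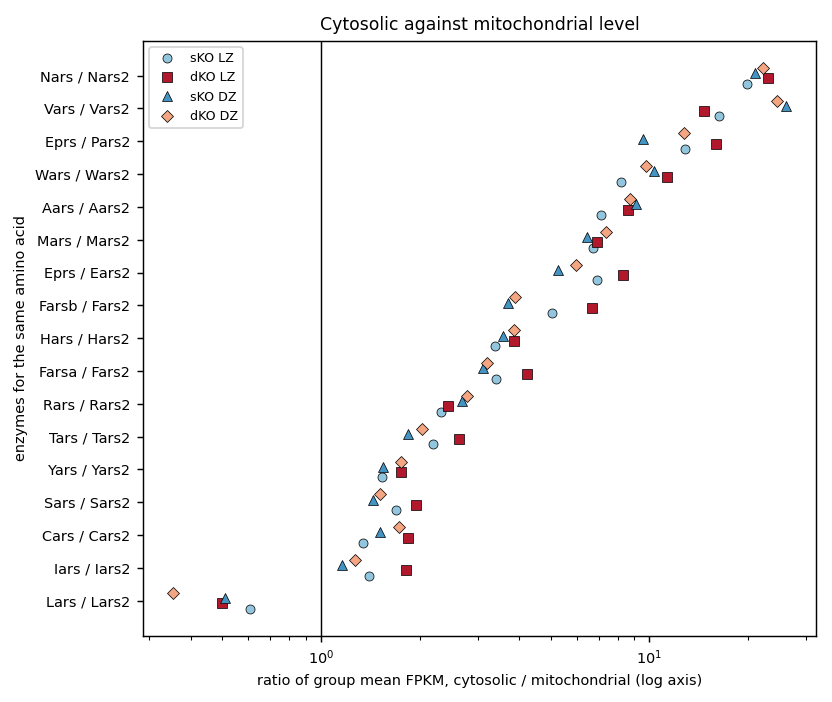
Ratio of the cytosolic to the mitochondrial gene's mean FPKM (log axis) for 17 pairs of enzymes for the same amino acid, with a symbol for each of the 4 groups. All pairs except Lars and Lars2 lie to the right of the line at equal level.

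In LZ cells, 16 of the 20 cytosolic synthetases rose in dKO over sKO and 1, Qars, fell. Of all genes tested, 31.1% were called in this comparison, 18.4% higher and 12.7% lower. The median difference of the 20 cytosolic genes was 0.38, against 0.02 for all genes tested, and 19 of the 20 differences were above 0. Of the 16 mitochondrial genes, 1 rose and 0 fell, with a median difference of 0.16. Their differences were above 0 in 14 of the 16, beside 53.8% of all genes tested. Among the calls of all genes, 59.05% were higher in dKO, and 45.51% with upper quartile scaling, under which 15 cytosolic genes still rose.

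Eprs, the glutamate and proline enzyme of the multisynthetase complex, was at 36.03 and 38.2 FPKM in sKO LZ and at 51.5 and 53.0 in dKO LZ. It rose by 0.48 ± 0.044 (SE; adjusted p = 0.00126, limma). The 4 libraries did not overlap, and the lower dKO library stood above the higher sKO library by far more than the replicates differed. Here and below, the called members described one by one were chosen among those with no overlap between libraries. Their lack of overlap is thus a condition of the choice and adds no support to a call.

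Nars, the asparagine enzyme, was at 45.6 and 47.5 FPKM in sKO LZ and at 62.1 and 64.4 in dKO LZ, a rise of 0.44 ± 0.040 (adjusted p = 0.00126, limma). Rars, which charges arginine and belongs to the complex, was at 41.0 and 42.8 against 53.7 and 55.2 FPKM, a rise of 0.37 ± 0.039 (adjusted p = 0.00179, limma). Both genes were higher in each dKO library than in each sKO library. Iars, the isoleucine enzyme of the complex whose promoter held both the ATF4 element and the E-box, was at 28.0 and 29.8 against 40.9 and 42.3 FPKM, a rise of 0.51 ± 0.055 (adjusted p = 0.00181, limma). Mars, for methionine and also in the complex, was at 28.8 and 29.3 against 38.6 and 39.7 FPKM and rose by 0.42 ± 0.046 (adjusted p = 0.00194, limma). The groups did not overlap for either gene.

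Lars, the cytosolic leucine enzyme, was at 23.7 and 24.9 FPKM in sKO LZ and at 32.3 and 33.1 in dKO LZ, a rise of 0.41 ± 0.048 (adjusted p = 0.00223, limma). Tars, which charges threonine, was at 33.4 and 34.8 against 46.0 and 47.4 FPKM, a rise of 0.44 ± 0.052 (adjusted p = 0.00223, limma). Gars, the glycine gene, was at 59.7 and 60.1 against 82.0 and 78.0 FPKM, a rise of 0.41 ± 0.050 (adjusted p = 0.00251, limma). In all 3 the dKO libraries stood above the sKO libraries. The calls of Eprs, Nars, Rars, Iars, Mars, Lars, Tars and Gars held in every alternative tried, as did those of Aars (alanine), Cars (cysteine), Dars (aspartate) and Yars (tyrosine). Yars had the largest difference of the cytosolic genes, 0.53 ± 0.080. The calls of Kars, Sars (serine), Farsb (phenylalanine, beta subunit) and Hars (histidine) were each lost without at least 1 LZ library, and 12 cytosolic genes rose without replicate 1 of dKO LZ. Without replicate 2 of dKO LZ, the library with the highest myeloid sum, 14 rose. In the same libraries the summed B cell markers were lower in dKO, the plasma cell and erythroid sums were higher and the myeloid sums overlapped, and their part in these results was not tested. Besides its losses without an LZ library, the Hars call was lost under other alternatives, at adjusted p of up to 0.0722 (limma).

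The 3 cytosolic genes with no call in LZ were Farsa, the alpha subunit for phenylalanine (0.25 ± 0.078, adjusted p = 0.0520, limma), Wars, the tryptophan enzyme (0.22 ± 0.078, adjusted p = 0.0765), and Vars (0.07 ± 0.077, adjusted p = 0.516). The 95% interval of the Vars difference, -0.11 to 0.26, lay below the cytosolic median of 0.38. The difference rested on sKO LZ libraries at 104 and 87.9 FPKM, and ranged from -0.0488 to 0.194 when 1 library was left out. For Farsa this range was 0.144 to 0.356 and for Wars 0.107 to 0.332. By structural class, 7 of 10 cytosolic class I enzymes rose and 1 fell, and 9 of 10 class II enzymes rose. Of the 8 enzymes of the multisynthetase complex, 7 rose and Qars fell, with a median of 0.39, and 9 of the 12 enzymes outside it rose, with a median of 0.37. Of 13 synthetase genes linked to ATF4, 11 rose, with a median of 0.42, and 5 of the 7 others rose and 1 fell, with a median of 0.32.

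Rars2, the mitochondrial arginine enzyme, was the mitochondrial gene that rose in LZ. It was at 17.2 and 18.9 FPKM in sKO and 22.2 and 22.4 in dKO, a difference of 0.29 ± 0.086 (adjusted p = 0.0451, limma). The groups did not overlap. The call was lost without filter, with other scalings, with a replicate block, with no variance trend and without each of the LZ and dKO DZ libraries, at adjusted p from 0.0544 to 0.161. Cars2, for cysteine, lay at 12.2 and 11.8 FPKM in sKO LZ and 11.8 and 12.4 in dKO LZ, a difference of 0.01 ± 0.048 with a 95% interval from -0.11 to 0.13. The groups overlapped, whereas its cytosolic counterpart Cars rose by 0.45 ± 0.056 (adjusted p = 0.00267, limma). For 10 of the 16 mitochondrial genes the upper 95% bound was below the cytosolic median of 0.38. This count depends on the scale, which shrinks changes of low genes more, and most mitochondrial genes were lower in level. Nars2, at a mean of 2.31 FPKM, entered it narrowly, with a bound of 0.3807 against a median of 0.3826. The median SE was 0.09 for mitochondrial and 0.053 for cytosolic genes, so the mitochondrial estimates were less precise. In 15 of the 17 pairs the cytosolic gene had the larger difference, and the difference between the classes was not tested.

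**Figure D3:**
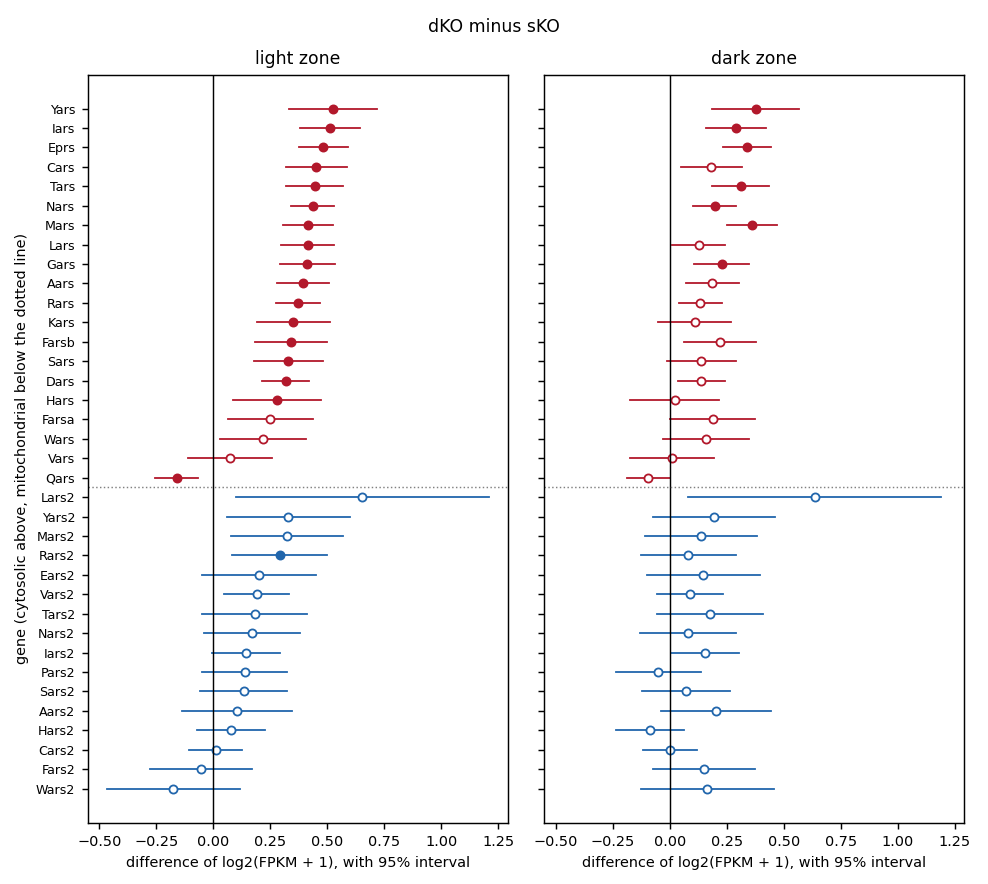
Difference between dKO and sKO on the log2(FPKM + 1) scale in LZ (left) and DZ (right) for each synthetase, cytosolic in red above the dotted line and mitochondrial in blue below it. Points are estimates, lines are 95% intervals and filled points passed the limma threshold: 17 cytosolic genes and Rars2 in LZ, and 7 cytosolic genes in DZ.

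In DZ cells, 7 of the 20 cytosolic synthetases rose in dKO and 0 fell, where 11.9% of all genes tested were called, 6.63% higher and 5.23% lower. The median cytosolic difference was 0.19, against 0.01 for all genes. No mitochondrial gene was called by limma in either direction, 2 had an unadjusted p under 0.05, and the mitochondrial median was 0.14. The difference was above 0 for 19 of 20 cytosolic and 14 of 16 mitochondrial genes, beside 53.6% of all genes tested. Beside the LZ result, the mitochondrial median was thus close to its LZ value and the cytosolic median was lower.

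Mars was at 27.2 and 26.6 FPKM in sKO DZ and at 33.6 and 35.965 in dKO DZ, a rise of 0.36 ± 0.046 (adjusted p = 0.00856, limma). Eprs was at 29.5 and 29.8 against 37.1 and 38.4 FPKM, a rise of 0.34 ± 0.044 (adjusted p = 0.00875, limma). Tars was at 28.4 and 29.8 against 37.7 and 35.0 FPKM and rose by 0.31 ± 0.052 (adjusted p = 0.0165, limma). In these 3 genes, as in LZ, the dKO libraries did not overlap the sKO libraries. Iars rose by 0.29 ± 0.055, Nars by 0.20 ± 0.040, Yars by 0.38 ± 0.080 and Gars by 0.23 ± 0.050 (adjusted p 0.0230 to 0.0361, limma). All 7 genes also rose in LZ.

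The DZ count rested on single libraries. It was 1 without replicate 1 of dKO DZ, with Mars the gene left, and 0 without replicate 2. It was 2 without replicate 1 of sKO DZ, 4 without either dKO LZ library and 3 when only the DZ libraries were fitted. The median difference kept its sign in all of these, between 0.16 and 0.19. All 7 calls were among the 13 genes linked to ATF4, whose median difference was 0.20, with 10 at an unadjusted p under 0.05 (limma). The other 7 had no call, but 6 of their differences were above 0. Of these 7, 4 had an unadjusted p under 0.05, and their median was 0.13. Whether the 2 sets differ was not tested.

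The genotype difference was compared between zones as an interaction, the signed LZ difference minus the signed DZ difference. No member was called by limma, where 3 of 10610 genes were (0.0283%). Of the 20 cytosolic genes, 19 had an interaction above 0 and 9 had an unadjusted p under 0.05, with a median of 0.18. Qars, whose difference was further below 0 in LZ than in DZ, was the gene with an interaction below 0. Of all genes tested, 53.3% had an interaction above 0. These shares count the sign of the interaction and not the size of the change. Lars had 0.29 ± 0.068, with a 95% interval from 0.12 to 0.45, and Cars 0.27 ± 0.079, from 0.08 to 0.46 (adjusted p 0.336 and 0.356, limma). Eprs, Mars and Tars had 0.14 ± 0.062, 0.06 ± 0.065 and 0.13 ± 0.074, each with an interval that held 0. Among mitochondrial genes 0 had an unadjusted p under 0.05, with a median of 0.06. A larger response in LZ was therefore not shown for any single synthetase.

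Averaged over both zones, 17 cytosolic genes rose and Qars fell, where 37.2% of all genes were called, 21.7% higher. The 5 with the smallest p were Eprs (0.41 ± 0.031), Mars (0.39 ± 0.033), Nars (0.32 ± 0.028), Iars (0.40 ± 0.039) and Tars (0.38 ± 0.037), with adjusted p from 0.000414 to 0.000805 (limma). In this average 5 mitochondrial genes rose: Lars2 (0.64 ± 0.16), Iars2 (0.15 ± 0.044), Vars2 (0.14 ± 0.042), Yars2 (0.26 ± 0.079) and Mars2 (0.23 ± 0.072), with adjusted p from 0.0230 to 0.0471. Between 0 and 3 mitochondrial genes rose when a library was left out, 0 of them without replicate 2 of sKO LZ.

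Qars, the glutamine enzyme and a member of the multisynthetase complex, moved against the other cytosolic genes. In LZ it was at 63.4 and 60.8 FPKM in sKO and 54.6 and 56.3 in dKO, and in DZ at 72.1 and 70.3 in sKO and 66.1 and 67.2 in dKO. In both zones the dKO libraries lay below the sKO libraries with no overlap. It fell by 0.16 ± 0.039 on the log2 scale in LZ (adjusted p = 0.024, limma). In DZ its difference was -0.09 ± 0.039 (adjusted p = 0.181). The LZ call was lost without replicate 1 of sKO LZ (adjusted p = 0.079), replicate 1 (0.129) or 2 (0.0676) of dKO LZ, either dKO DZ library (0.0517 and 0.0516), and when the LZ libraries were fitted alone (0.0757). The MAF core shown above was in the Qars promoter. That is 1 of the 13 cytosolic promoters read (7.69%), a share near the 5.95% of all genes. No promoter was read for the remaining cytosolic genes, and a part of the core in the Qars result was not tested.

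Lars2, the mitochondrial leucine enzyme, had a genotype difference with the widest error of any member. In LZ it was at 40.7 and 39.1 FPKM in sKO and 47.9 and 83.6 in dKO, and in DZ at 41.5 and 37.4 in sKO and 65.3 and 58.4 in dKO. All 4 dKO libraries stood above the 4 sKO libraries, and dKO LZ replicate 2 stood far above its partner. The difference was 0.65 ± 0.23 in LZ (adjusted p = 0.0744, limma). In DZ it was 0.64 ± 0.23 (adjusted p = 0.132). The LZ difference was 0.26 without replicate 2 of dKO LZ (adjusted p = 0.118) and 1.05 without replicate 1 (adjusted p = 0.0114). The DZ difference was called without replicate 2 of dKO LZ (adjusted p = 0.02), without its replicate 1 (adjusted p = 0.0196) and when only the DZ libraries were fitted (adjusted p = 0.036). The average over zones was called in the main setting, and its call was lost without each of 6 single libraries, those of sKO LZ, sKO DZ and dKO DZ (adjusted p 0.0512 to 0.0739).

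Rn45s, the precursor of ribosomal RNA, is given beside Lars2. In LZ, Rn45s was at 77.9 and 69.4 FPKM in sKO and 79.2 and 109 in dKO, and in DZ at 77.9 and 87.6 in sKO and 98.0 and 90.8 in dKO. Both genes were highest in dKO LZ replicate 2, and the part of ribosomal RNA in the Lars2 result was not tested. Lars2 made up 39.9 of the summed 177 FPKM of the mitochondrial genes in sKO LZ and 65.7 of 221 in dKO LZ. The sum over 16 genes was 1.25 times as high in dKO LZ as in sKO LZ and 1.19 times in DZ. Without Lars2 it was 1.13 and 1.08 times as high, while the cytosolic sum was 1.25 and 1.11 times as high.

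**Figure D4:**
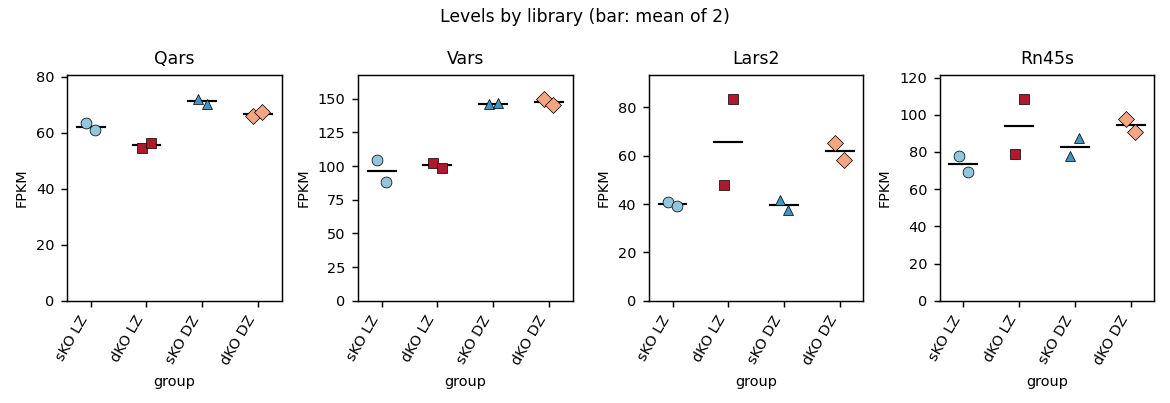
FPKM of Qars, Vars, Lars2 and Rn45s in each library of the 4 groups, with the mean of the 2 libraries as a bar and axes from 0. Qars is lower in dKO than in sKO in both zones, Vars is lower in LZ than in DZ in both genotypes, and Lars2 and Rn45s share their highest library, in dKO LZ.

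Between the zones the cytosolic enzymes went both ways in sKO, as all genes did, and mostly toward LZ in dKO. These comparisons use the same libraries as the genotype comparisons and are not independent of them. In sKO, 6 were higher in LZ (Eprs, Lars, Iars, Tars, Nars and Farsb) and 4 were higher in DZ (Vars, Qars, Dars and Aars), where 31.2% of all genes were called, 15.2% higher and 16.1% lower in LZ. The median cytosolic difference between LZ and DZ was 0.01. In dKO, 9 were higher in LZ and 2, Vars and Qars, were higher in DZ, where 34.1% of genes were called, 18.0% higher and 16.1% lower in LZ. The median in dKO was 0.20, and 16 of the 20 differences were above 0, beside 51.07% for all genes.

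Vars, highest of the cytosolic genes in level, was lower in LZ in both genotypes. In LZ it was at 104 and 87.9 FPKM in sKO and 103 and 98.8 in dKO, and in DZ at 146 and 147 in sKO and 150 and 145 in dKO. The zones did not overlap, and the genotypes overlapped in both zones. It was lower in LZ by -0.61 ± 0.077 in sKO (adjusted p = 0.00229, limma) and by -0.55 ± 0.077 in dKO (adjusted p = 0.00286). Qars was lower in LZ by -0.19 ± 0.039 in sKO (adjusted p = 0.0126, limma) and -0.26 ± 0.039 in dKO (adjusted p = 0.00364).

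Eprs, with the library levels given above, was higher in LZ by 0.32 ± 0.044 in sKO (adjusted p = 0.00341, limma) and 0.46 ± 0.044 in dKO (adjusted p = 0.000713). Lars was at 19.5 and 20.6 FPKM in sKO DZ and 22.3 and 21.6 in dKO DZ, below its LZ levels in both genotypes, by 0.27 ± 0.048 and 0.55 ± 0.048 (adjusted p = 0.00855 and 0.000511, limma). Iars and Tars were also higher in LZ in both genotypes, by 0.26 ± 0.055 and 0.22 ± 0.052 in sKO and by 0.48 ± 0.055 and 0.35 ± 0.052 in dKO. Nars was higher by 0.15 ± 0.040 in sKO and 0.39 ± 0.040 in dKO, and Rars, with no call in sKO, by 0.32 ± 0.039 in dKO (adjusted p = 0.00173, limma).

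Dars was at 69.7 and 70.4 FPKM in sKO LZ and 82.5 and 79.9 in sKO DZ, lower in LZ by -0.21 ± 0.043 (adjusted p = 0.0128, limma). Aars was at 28.3 and 26.9 against 31.7 and 33.4 FPKM, lower in LZ by -0.23 ± 0.048 (adjusted p = 0.0141, limma). In dKO neither had a zone call, with differences of -0.03 ± 0.043 and -0.02 ± 0.048. The sKO calls of Eprs and Vars held in every alternative. The count in sKO fell to 2 higher and 2 lower without replicate 2 of sKO LZ or replicate 1 of sKO DZ, and to 1 and 1 when only the sKO libraries were fitted.

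Of the mitochondrial genes, Rars2 was higher in LZ in both genotypes, at 17.2 and 18.9 against 15.8 and 13.6 FPKM in sKO (0.28 ± 0.086, adjusted p = 0.0493, limma) and at 22.2 and 22.4 against 14.8 and 16.4 in dKO (0.49 ± 0.086, adjusted p = 0.00665). The groups did not overlap in either genotype. Sars2, for serine, was lower in LZ in sKO, at 11.1 and 11.6 against 14.8 and 13.2 FPKM (-0.28 ± 0.080, adjusted p = 0.0391, limma). Fars2, for phenylalanine, was lower in LZ in dKO, at 8.86 and 8.25 against 11.7 and 11.1 FPKM (-0.37 ± 0.093, adjusted p = 0.0231, limma). The Rars2 call in dKO held in every alternative. Its sKO call and those of Sars2 and Fars2 were lost without single libraries, at adjusted p of up to 0.202, 0.165 and 0.116.

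**Figure D5:**
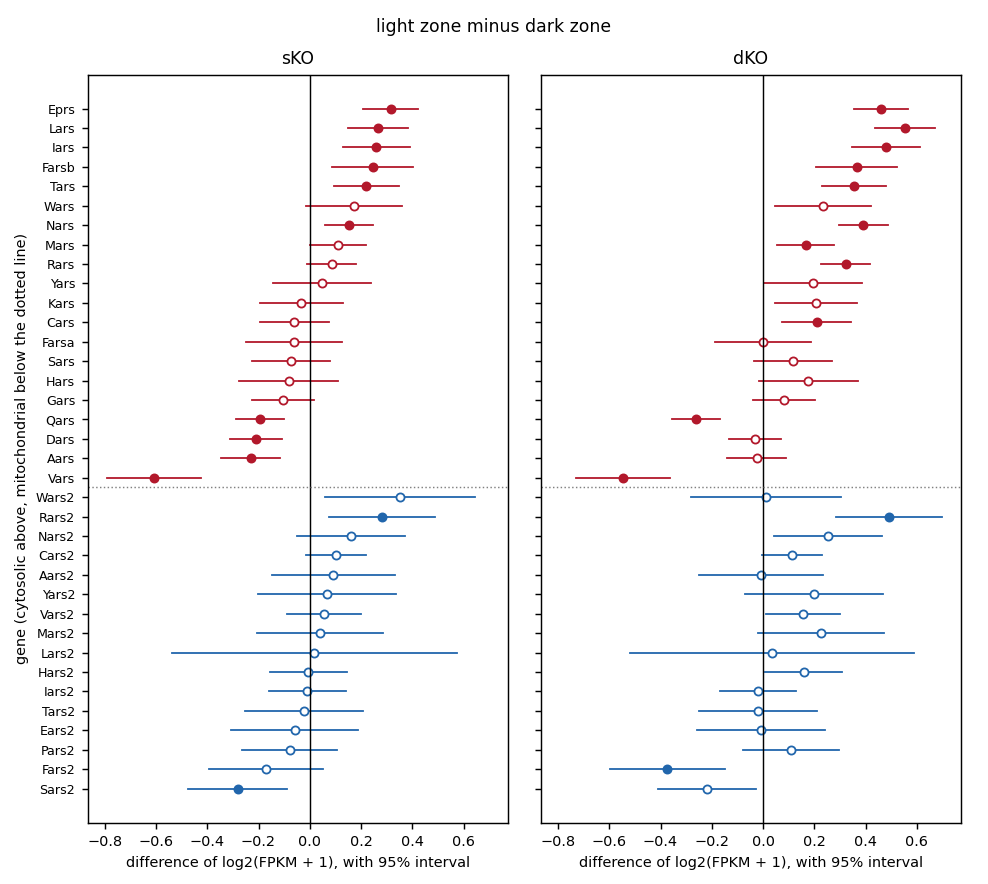
Difference between LZ and DZ on the log2(FPKM + 1) scale in sKO (left) and dKO (right) for each synthetase, cytosolic in red above the dotted line and mitochondrial in blue below it. Points are estimates, lines are 95% intervals and filled points passed the limma threshold, with Vars and Qars on the DZ side in both genotypes.

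The scaffold genes of the multisynthetase complex were measured beside its enzymes. Aimp2 was at 23.9 and 23.3 FPKM in sKO LZ and at 39.8 and 33.9 in dKO LZ, a rise of 0.62 ± 0.10 (adjusted p = 0.00655, limma). Eef1e1, which encodes the scaffold protein AIMP3, was at 31.3 and 32.1 against 47.7 and 42.0 FPKM, a rise of 0.48 ± 0.070 (adjusted p = 0.00407, limma). Neither gene overlapped between genotypes in LZ. In DZ Eef1e1 rose by 0.34 ± 0.070 (adjusted p = 0.0297, limma), and Aimp2 had 0.26 ± 0.10 (adjusted p = 0.155). Aimp1, the remaining scaffold gene, was at 53.3 and 62.2 against 58.3 and 63.9 FPKM in LZ, with overlapping groups and a difference of 0.08 ± 0.083.

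The genes that complete charging in mitochondria had no call in either zone by limma, with 1 of 4 at an unadjusted p under 0.05 in LZ and 0 in DZ. Qrsl1, a subunit of the glutaminyl-tRNA amidotransferase, was at 29.7 to 33.0 FPKM over the 8 libraries, with a genotype difference of 0.01 ± 0.048 in LZ. The other subunits, Pet112l (now Gatb) and Gatc, had 0.12 ± 0.084 and 0.20 ± 0.073 in LZ, and Mtfmt, which formylates the initiator tRNA, had 0.14 ± 0.094. All 3 genes for editing of mischarged tRNA were called in LZ, beside 31.1% of all genes tested. Aarsd1 and Dtd1 rose by 0.44 ± 0.077 and 0.33 ± 0.096, and Prorsd1 fell by 0.34 on the log2 scale, from 10.8 and 11.4 FPKM to 8.29 and 8.87 (adjusted p 0.0077 to 0.0406, limma). None of the 3 was called in DZ.

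Genes of the amino acid response outside the synthetases were counted from a list of 17, of which 15 passed the filter. In LZ 8 rose and 1, the mTORC1 inhibitor gene Ddit4, fell, beside 18.4% and 12.7% of all genes. In DZ 4 rose and Ddit4 fell, beside 6.63% and 5.23%. Atf4 itself was at 133 and 117 FPKM in sKO LZ and 145 and 141 in dKO LZ, a difference of 0.19 ± 0.068 (adjusted p = 0.0770, limma). It had 0.03 ± 0.068 in DZ. Asns, the asparagine synthetase gene, was at 7.88 and 8.96 FPKM in sKO LZ and 16.9 and 16.6 in dKO LZ, a rise of 0.91 ± 0.070 (adjusted p = 0.000918, limma). In DZ it was at 5.56 and 5.56 against 5.61 and 5.96 FPKM, a difference of 0.05 ± 0.070. The 7 cytosolic synthetases named above rose in DZ, and Asns was not called there. Asns was picked for this after its values were seen. Of the 15 genes of its list, 12 had a DZ difference above 0, with a median of 0.13. The interaction of Asns was 0.87 ± 0.099 (adjusted p = 0.142, limma). Slc7a5, the large neutral amino acid transporter, rose in both zones, by 0.71 ± 0.059 and 0.57 ± 0.059 (adjusted p = 0.00102 and 0.00537), as did Shmt2, of mitochondrial serine and glycine metabolism, by 0.72 ± 0.063 and 0.49 ± 0.063 (adjusted p = 0.0011 and 0.00847). Myc was at 41.6 and 32.6 FPKM in sKO LZ and 55.3 and 52.5 in dKO LZ, with a difference of 0.54 ± 0.27 (adjusted p = 0.174, limma).

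Some members share exonic bases with neighbours, and whether the library kit kept strand is not given, so that their reads could be shared. In the GENCODE M21 annotation of GRCm38, a later build than the one used for the table, the share was 31.7% for Iars2 with Rab3gap2, on the opposite strand, and 20.7% for Aars with Exosc6, on the same strand. Exosc6 rose in LZ by 0.53 ± 0.087 (adjusted p = 0.00646, limma), and its part in the Aars value was not tested. The shares were 13.5% for Cars2, 11.3% for Fars2, 10.8% for Farsb, 9.03% for Hars and under 7% for the others.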

How the data were processed

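The deposited table holds FPKM for 23234 gene symbols in 8 columns, per the file headers; the authors' tools, per the submitters' processing notes, were TopHat2 2.0.8 and Cufflinks 2.1.1 with the mm9 build. Depth per library is unknown from FPKM, which summed to 502214 to 540885 per library. The table's 1 row of sample codes was dropped, and every column matched a sample (0 did not). The file holds no counts, so the count tests planned for that case were not run.

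Values were taken as log2(FPKM + 1). The 10610 genes that reached 1 FPKM in 2 or more libraries were fitted in R 4.3.3 with limma 3.58.1, using 4 group means over all 8 libraries and an intensity trend (4 residual, 2.46 prior degrees of freedom). The 2-sided p-values of each contrast were adjusted by Benjamini-Hochberg over all genes tested. Classes were described by counts and medians, without a test.

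The members, lists and tests were chosen with earlier results of these data known. Members described one by one were, in each pairwise contrast, the 8 cytosolic and 5 mitochondrial ones with the smallest p among called genes with no overlap between libraries, and 5 in the other contrasts. Cars2, and the comparison of Asns with the synthetases, were chosen after their values were seen. Results of a further gene list are not reported here. Alternatives were other pseudocounts, filters, scalings and variance priors, a replicate block, fits of the compared libraries alone, and each library omitted in turn. Promoter windows came from RefSeq and were searched on both strands.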

Additional observations from a re-analysis of the deposited data

How the results depend on the processing

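Over 73 calls of single synthetases, 1218 values were recomputed: 1015 kept direction and call, and 203 kept direction and lost the call. None of these called values changed direction. The zone medians in sKO, near 0, did: without replicate 1 of sKO LZ the cytosolic one went from 0.00746 to -0.0833 and the mitochondrial one from 0.0287 to -0.00468. With a pseudocount of 5 the median difference between dKO and sKO became 0.347 in LZ and 0.16 in DZ for cytosolic genes (0.247 over both zones), and 0.0747 in DZ for mitochondrial genes (0.0876 over both zones), 3 mitochondrial genes rose in LZ, and the cytosolic zone median in dKO was 0.173. Upper quartile scaling gave cytosolic medians of 0.324 in LZ, 0.236 over both zones and 0.142 for the interaction, with 0 mitochondrial genes rising in LZ and 1 over both zones. Quantile normalization gave 0.306, 0.231 and 0.11, with 2 mitochondrial genes rising in LZ and zone medians of 0.0393 (sKO) and 0.178 (dKO). With no filter 0 mitochondrial genes rose in LZ or over both zones. The mitochondrial zone calls in sKO (1 higher, 1 lower) went to 0 with no filter, upper quartile scaling, the block or only the libraries compared, the higher one also with no variance trend and the lower one with quantile normalization. With no trend 2 mitochondrial genes were higher in LZ in dKO. With only the libraries compared, Qars was not called in LZ (0 fell), 2 mitochondrial genes rose in LZ and 1 in DZ, 3 cytosolic genes rose in DZ, and the sKO zone counts were 1 and 1. Without Lars2 the mitochondrial sum ratio in DZ was 1.083. The cause of these shifts was not tested.

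Same-numbered libraries deviated together only weakly (correlations of -0.0976 to 0.124 for groups that share a zone or genotype), and 2 pairs a contrast cannot show a pairing. With the replicate block, 16 cytosolic genes rose in LZ and 6 in DZ, and 0 mitochondrial genes rose in LZ and 1 over both zones.

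Leaving out 1 library at a time gave, for dKO against sKO, 12 to 17 cytosolic rises and 0 to 1 falls in LZ, 0 to 7 rises in DZ, and 15 to 18 rises and 0 to 1 falls over both zones. Mitochondrial rises were 0 to 2, 0 to 1 and 0 to 3. Cytosolic medians were 0.381 to 0.395, 0.157 to 0.192 and 0.249 to 0.289, with 0.151 to 0.21 for the interaction. Mitochondrial medians were 0.153 to 0.187, 0.089 to 0.171 and 0.117 to 0.149, with 0.0235 to 0.117 for the interaction. Between zones, 2 to 6 cytosolic genes were higher and 2 to 4 lower in sKO (median -0.0833 to 0.057), and 7 to 12 higher and 2 lower in dKO (median 0.191 to 0.216). Mitochondrial zone calls were 0 to 1 in each direction in sKO (median -0.00468 to 0.0744), and 1 to 2 higher and 0 to 1 lower in dKO (median 0.0591 to 0.144). With 2 libraries a group and unknown depth, differences near 0.2 were often not callable for mitochondrial genes.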

Other observations

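Genes that mature, modify or export tRNA were also often higher in dKO. Of 27 such genes, all of which passed the filter, 15 rose in dKO over sKO in LZ and 8 in DZ, and 0 fell in either zone, beside 18.4% and 6.63% of all genes that rose. Nsun2, a tRNA cytosine methyltransferase, was at 34.9 and 33.7 FPKM in sKO LZ, 49.2 and 49.1 in dKO LZ, 23.5 and 25.3 in sKO DZ and 32.0 and 32.0 in dKO DZ. It rose by 0.51 ± 0.046 in LZ and 0.38 ± 0.046 in DZ (adjusted p = 0.00126 and 0.0081, limma). Xpot, the tRNA export receptor, rose by 0.46 ± 0.048 and 0.41 ± 0.048, and Pus7, a pseudouridine synthase, by 0.70 ± 0.069 and 0.53 ± 0.069. Between zones, 13 of the 27 were higher in LZ in sKO and 17 in dKO, with 0 lower, beside 15.2% and 18.0% of all genes that were higher and 16.1% that were lower in each. Whether this list differs from the cytosolic synthetases was not tested.

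Elongation and initiation factor genes were read beside them. Of 5 cytosolic elongation factor genes, Eef1d and Eef1g rose in LZ, by 0.31 ± 0.054 and 0.17 ± 0.047 (adjusted p = 0.00758 and 0.035, limma), and 0 were called in DZ (2 of 5 rose in LZ, beside 18.4% of all genes). Of 6 mitochondrial initiation and elongation factor genes, Tufm, Tsfm and Gfm1 rose in LZ, by 0.31 ± 0.048, 0.49 ± 0.11 and 0.35 ± 0.069. Gfm2, which acts in ribosome recycling, fell by 0.21 on the log2 scale (adjusted p = 0.0195, limma), beside 12.7% of all genes that fell.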
